A study of Mus musculus with 42 samples.

Results

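The 8 genes described here encode the hepatic pyruvate kinase (Pklr), ketohexokinase (Khk), the glucose transporter GLUT2 (Slc2a2), liver glycogen synthase (Gys2), liver glycogen phosphorylase (Pygl), and 3 glycogen-targeting subunits of protein phosphatase 1 (Ppp1r3b, Ppp1r3c and Ppp1r3g). They were chosen by gene symbol, 8 of the 54532 genes in the read count table, and each symbol had 1 row. Their levels were followed in liver libraries by diet and time of day. Female C57BL/6NHsd mice were 3 weeks old at the start and ate 1 of 2 purified diets for 3 weeks: AIN93G, with 16% of energy from fat, or a high-fat diet (HFD), with 45%. The mice were not fasted, livers were taken every 4 h from zeitgeber time (ZT) 0, when lights came on, to ZT 24, and lights went off at ZT 12. Each of 14 groups had 3 libraries of poly(A) RNA, 42 in all. The diets differed in the shares of energy from fat and from carbohydrate together, while protein gave the same share in both. The effects of fat and of carbohydrate thus cannot be told apart.

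In the liver, GLUT2 carries glucose and fructose across the hepatocyte membrane, pyruvate kinase closes glycolysis by making pyruvate, and ketohexokinase takes fructose into metabolism by making fructose 1-phosphate. Glycogen synthase builds the glycogen chain and glycogen phosphorylase releases glucose 1-phosphate from it, while the targeting subunits hold the phosphatase on the glycogen particle, where it activates the synthase and inactivates the phosphorylase. The hepatic form of Pklr is known to be transcribed under the carbohydrate-responsive factor ChREBP, and liver glycogen is filled and emptied over each day of feeding and fasting.

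RefSeq start-site sequences (build GRCm38.p6; 250 bases before to 50 after a start) were matched for 6 of the 8 genes, as 7 windows, since Pklr has 2. The 3 below are those that hold an E-box or the carbohydrate response element of Pklr. Capitals mark the carbohydrate response element of Pklr, which is CACGGG and CCCGTG with 5 bases between them, or CACGTG, the E-box. Both strands were searched, and each motif reads the same on both.
Pklr, downstream start, chr3:89136373-89136672, plus strand: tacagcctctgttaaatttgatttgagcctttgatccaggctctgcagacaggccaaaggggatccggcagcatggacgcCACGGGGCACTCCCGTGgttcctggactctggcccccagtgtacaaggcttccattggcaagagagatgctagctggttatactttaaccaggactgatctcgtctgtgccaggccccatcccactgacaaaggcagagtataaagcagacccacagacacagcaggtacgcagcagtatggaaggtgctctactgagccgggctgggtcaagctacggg
Khk, chr5:30921309-30921608, plus strand: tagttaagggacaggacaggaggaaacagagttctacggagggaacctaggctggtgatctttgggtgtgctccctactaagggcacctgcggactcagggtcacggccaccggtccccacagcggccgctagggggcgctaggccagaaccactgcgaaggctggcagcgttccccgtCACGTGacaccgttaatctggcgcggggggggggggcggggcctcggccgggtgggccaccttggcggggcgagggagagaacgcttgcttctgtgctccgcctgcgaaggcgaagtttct
Ppp1r3c, chr19:36736555-36736854, minus strand: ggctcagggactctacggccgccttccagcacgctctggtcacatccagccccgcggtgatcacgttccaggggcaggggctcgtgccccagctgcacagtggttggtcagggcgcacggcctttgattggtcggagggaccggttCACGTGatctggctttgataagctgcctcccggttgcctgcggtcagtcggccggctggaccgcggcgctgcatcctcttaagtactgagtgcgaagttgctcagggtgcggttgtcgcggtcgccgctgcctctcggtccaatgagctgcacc
The Pklr element began 170 bases before the start, and its pattern, which is that of Pklr itself, was in 1 of 32851 windows (0.00304%). A looser form, CACGNG and CNCGTG at the same spacing, was in 15 windows (0.0457%). The E-box began 71 bases before the start of Khk and 104 before that of Ppp1r3c, and 7.15% of all windows held one. Neither was found in the windows of Slc2a2, Pygl, Ppp1r3g or the upstream start of Pklr. The ROR elements TAGGTCA (2.61% of windows) and TGGGTCA (3.98%) were each in 1 Pklr window and are not capitalised, and 2 forms of the D-box, the CRE and the forkhead motif GTAAACA (3.65%) were in none of the 7. A match describes the letters and does not show that a factor binds.

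Libraries that stood apart from their labels bear on every profile. Alb, the albumin gene that defines hepatocytes, was at 66434 CPM (read counts scaled by each library's total) or more in 32 libraries, the liver libraries used here, and at 18.7 to 81.0 CPM in 10, in which the adipocyte hormone gene Adipoq was at 1455 to 2984 CPM against 0 to 5.01 in the 30 fitted liver libraries. On AIN93G these took in the 3 libraries of ZT 16, the 3 of ZT 20 and 2 of those of ZT 24, and on the HFD 2 of those of ZT 24, so that the AIN93G profile ended at ZT 12 and ZT 24 had 1 liver library a diet, left out of the fits. The 30 fitted libraries held 14592481 to 19815356 counts.

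The ZT 12 libraries did not resemble each other. Arntl, the clock activator also called Bmal1, was at 41.96, 38.9 and 41.8 CPM at ZT 0 and 1.22, 1.65 and 2.26 CPM at ZT 8 on AIN93G, here in CPM scaled by TMM factors (edgeR's factors for library composition). At ZT 12 it was at 1.14, 42.5 and 46.5 CPM on AIN93G and 1.76, 0.943 and 38.5 CPM on the HFD. AIN93G replicates 2 and 3 and HFD replicate 3 thus had ZT 0 levels, and the other 3 had ZT 8 levels. The ZT 24 libraries, 24 h after ZT 0, had 0.782 CPM on AIN93G and 1.15 CPM on the HFD. Nr1d1, the clock repressor, was at 15.4, 1.69 and 2.74 CPM on AIN93G and 12.0, 15.1 and 5.61 CPM on the HFD at ZT 12. By their phase labels, AIN93G replicate 2 and HFD replicate 3 were from the light phase and the other 4, AIN93G replicate 3 among them, from the dark phase. Low Arntl thus marked 1 of 3 ZT 12 libraries on AIN93G and 2 of 3 on the HFD, so the main diet and time results of the 8 genes are given without ZT 12 too.

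Levels per length compare the genes with each other. As a mean over the 30 fitted libraries, 18 of them on the HFD, Khk was highest at 263 CPM per kb, ahead of Pklr at 104 and Pygl at 85.7 CPM per kb. Gys2 had 66.5, Ppp1r3b 62.5 and Slc2a2 57.3 CPM per kb. Ppp1r3c stood at 34.7 and Ppp1r3g at 1.499 CPM per kb. The order of neighbours turned between groups: Pklr was above Pygl at ZT 0 on AIN93G (150.2 against 99.6 CPM per kb) and below it at ZT 0 on the HFD (47.8 against 70.1). Ppp1r3b was above Gys2 at ZT 0 on AIN93G (72.2 against 40.1) and on the HFD (58.8 against 37.1). It was below Gys2 at ZT 8 on AIN93G (29.4 against 112) and on the HFD (32.7 against 102). All 8 passed the filter of a mean count of 25, and Ppp1r3g did so with a mean of 68.7 counts, a range of 0 to 828. Unless said otherwise, the other values below are CPM scaled by TMM factors, which compare 1 gene between libraries and not genes with each other.

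**Figure D1:**
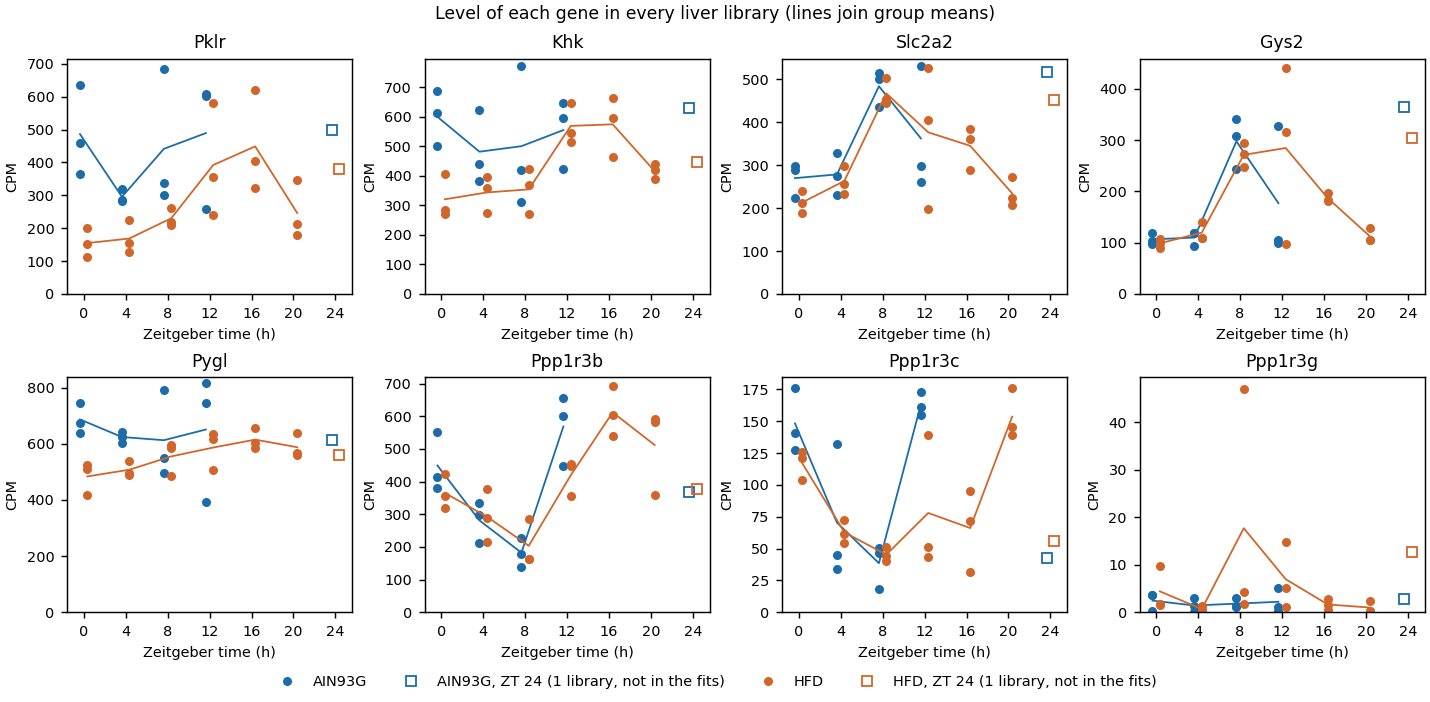
CPM of each gene (y axis) by zeitgeber time in hours (x axis), with 1 point a liver library, AIN93G in blue and the HFD in orange, and lines through the group means. Squares are the ZT 24 libraries, which were not fitted. At ZT 0 the Pklr points of the diets were apart, and at ZT 12 the Gys2 points split into a high and a low set on both diets.

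The first question was whether the HFD shifted these genes. Pklr, which encodes the last enzyme of glycolysis, was lower on the HFD, by -0.92 on the log2 scale averaged over ZT 0 to ZT 12 (SE 0.18, adjusted p = 0.0372; edgeR quasi-likelihood test, 12 libraries a diet). It was the only 1 of the 8 past the threshold of 0.05. That test called 12 of 12023 genes, 0.0998%, of which 7, or 0.0582%, were lower on the HFD. Of the 8 genes, 6 had values below 0, and their median was -0.20, against -0.0019 over all genes tested.

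Pklr, at chr3:89136142-89146784 (plus strand), was at 637, 458 and 364 CPM at ZT 0 on AIN93G and at 200.4, 151 and 113 CPM on the HFD. At ZT 4 it was at 318, 285 and 284 CPM on AIN93G and 224, 155 and 127 CPM on the HFD. At ZT 8 the values were 339, 299.9 and 686 CPM and 209, 219 and 262 CPM. The diets did not overlap at these 3 times, where 6.53%, 3.69% and 6.50% of genes had the HFD wholly below AIN93G. At ZT 12 AIN93G had 258, 602 and 607 CPM and the HFD 355, 580.4 and 241 CPM, and the ranges overlapped. The single-time differences were -1.65 (SE 0.37, adjusted p = 0.327) at ZT 0, -0.80 (SE 0.37, adjusted p = 1.000) at ZT 4, -0.93 (SE 0.37, adjusted p = 0.328) at ZT 8 and -0.31 (SE 0.36, adjusted p = 0.829) at ZT 12. None passed, and the interaction of diet and time did not either (adjusted p = 0.852, or 0.999 without ZT 12).

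Without ZT 12 the Pklr difference was -1.13 (SE 0.19, adjusted p = 0.00606), in a fit that called 64 of 12056 genes (0.531%). DESeq2 gave -0.93 (adjusted p = 1.84e-04), 1 of 83 genes called (0.691%). Leaving out 1 library at a time kept the direction, from -1.02 to -0.81, but adjusted p ran from 0.00311 to 0.0975 and the call was kept in 9 of 24 fits. It was lost without AIN93G ZT 0 replicate 1, any AIN93G ZT 4 library, AIN93G ZT 8 replicate 3 or AIN93G ZT 12 replicate 2 or 3. It was also lost without HFD replicate 2 or 3 of ZT 0 or of ZT 4, replicate 1 or 2 of ZT 8, or replicate 1 or 3 of ZT 12. The end of Pklr overlaps that of Hcn3, a channel gene on the other strand, and the strand setting of the counting was not given in the sources used here. Hcn3 had a mean count of 482 against 5570 for Pklr and was itself lower on the HFD, by -1.38 (adjusted p = 0.0323). In bulk liver RNA, fewer cells of a type and less RNA per cell cannot be told apart.

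Khk, the fructose kinase gene at chr5:30921431-30931248 (plus strand), had no called diet difference with the count filter. At ZT 0 it was at 687, 613 and 501 CPM on AIN93G and 407, 286 and 270.5 CPM on the HFD, with no overlap (6.53% of genes). At ZT 4 AIN93G had 624, 439.5 and 383 CPM and the HFD 276, 397 and 359.6 CPM, which overlapped. At ZT 8 the values were 312, 419.7 and 771 CPM and 371, 423 and 269.8 CPM, and at ZT 12 425, 647 and 595 CPM and 545, 649 and 515 CPM, again overlapping, with a ZT 12 difference of 0.04 (SE 0.26, adjusted p = 0.976). The difference over ZT 0 to ZT 12 was -0.46 (SE 0.13, adjusted p = 0.186). It was -0.63 (SE 0.15, adjusted p = 0.0653) without ZT 12, and it passed with no filter on counts (adjusted p = 0.00480), a fit that called 232 genes (0.768%).

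Pygl, at chr12:70190811-70231488 (minus strand), encodes the enzyme that opens glycogen breakdown. It was at 747, 675 and 638 CPM on AIN93G and 523, 509.8 and 418 CPM on the HFD at ZT 0. The ZT 4 values were 625, 643 and 603 CPM and 496, 539 and 487 CPM. The diets did not overlap at either time, where 6.53% and 3.69% of genes had the HFD wholly lower. At ZT 8 they overlapped, with 497, 548 and 792 CPM on AIN93G and 595, 484 and 586 CPM on the HFD, as they did at ZT 12, with 393, 815 and 744 CPM and 508, 635 and 617 CPM. The difference over the 4 times was -0.27 (SE 0.09, adjusted p = 0.370). It passed without AIN93G ZT 12 replicate 1, where it was -0.33 (adjusted p = 0.0205), in a fit that called 183 genes against 12 with it. That library, with 393 CPM of Pygl, was the only AIN93G one of ZT 12 with low Arntl (1.14 CPM). Without it, low Arntl at ZT 12 was found on the HFD only. Without ZT 12 altogether the Pygl difference was -0.31 (SE 0.08, adjusted p = 0.0956).

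The transporter and the synthase had no called diet difference. Slc2a2, at chr3:28697903-28731359 (plus strand), differed by -0.10 (SE 0.13, adjusted p = 0.879), and Gys2, at chr6:142422613-142473109 (minus strand), by 0.15 (SE 0.18, adjusted p = 0.877). Without ZT 12 the value of Slc2a2 was -0.15 (SE 0.09, adjusted p = 0.508), and that of Gys2 turned below 0, to -0.04 (SE 0.08, adjusted p = 0.887). For Gys2 the value at ZT 12 was 0.69 (SE 0.36, adjusted p = 0.664). It passed, at 1.49 (adjusted p = 0.0389), without AIN93G ZT 12 replicate 1, in a fit that called 107 genes against 0 with it. That library was the only AIN93G one of ZT 12 with low Arntl (1.14 CPM). Without it, Arntl was at 42.5 and 46.5 CPM on AIN93G and 1.76, 0.943 and 38.5 CPM on the HFD, so the diets also differed in Arntl there. At ZT 0, ZT 4 and ZT 8 the Gys2 differences were -0.11, 0.13 and -0.12, each with an SE of 0.36.

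None of the phosphatase-targeting subunits passed for diet with edgeR and the count filter. Ppp1r3b, the main hepatic glycogen-targeting subunit, at chr8:35375739-35388139 (plus strand), differed by -0.12 (SE 0.12, adjusted p = 0.841), and by -0.02 (SE 0.15, adjusted p = 0.968) without ZT 12. Ppp1r3c, also called protein targeting to glycogen, at chr19:36731737-36736653 (minus strand), differed by -0.33 (SE 0.22, adjusted p = 0.718), and by -0.08 (SE 0.23, adjusted p = 0.908) without ZT 12. Its groups did not overlap at ZT 0 and ZT 12, where 6.53% and 5.16% of genes had the HFD wholly below AIN93G. At ZT 12 it was at 161, 173 and 155 CPM on AIN93G and 43.6, 51.0 and 139 CPM on the HFD, a difference of -1.06 (SE 0.44, adjusted p = 0.637), called with no filter on counts (adjusted p = 0.0328). Ppp1r3g, at chr13:35958839-35970388 (plus strand), was under 5 CPM in 25 of the 30 fitted libraries and differed by 1.18 (SE 0.63, adjusted p = 0.623), or by 1.02 (SE 0.70, adjusted p = 0.558) without ZT 12. At ZT 8 it was at 1.10, 1.30 and 3.08 CPM on AIN93G and 4.22, 47.0 and 1.82 CPM on the HFD. Its ZT 8 difference of 3.29 (SE 1.25, adjusted p = 0.312) was called with no filter on counts (adjusted p = 0.00109), rested on HFD replicate 2 and was 0.75 without it. AIN93G ZT 4 replicate 3 had 0 counts of Ppp1r3g, which allows up to 3 counts, or 0.181 CPM.

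**Figure D2:**
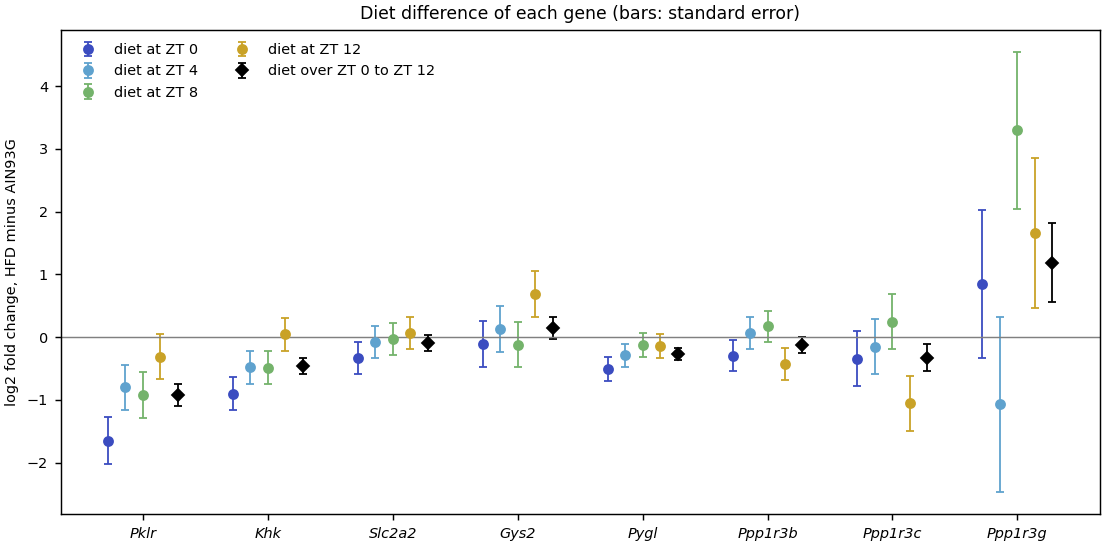
log2 fold change, HFD minus AIN93G (y axis), of each gene (x axis) at each of 4 times (3 libraries a diet) and over all of them (black diamonds, 12 libraries a diet), with standard errors from edgeR as bars. Pklr was below 0 at all 4 times, and the bars of Ppp1r3g were the widest of the 8.

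At single times, edgeR called 0 of 12023 genes at ZT 0 (480 at an unadjusted p under 0.05, 13 with DESeq2), 0 at ZT 4 (302 and 0), 2, or 0.0166%, at ZT 8 (1411 and 30) and 0 at ZT 12 (875 and 3). The interaction of diet and time called 0 genes (728 and 5). None of the 8 genes was called in these tests with edgeR, and DESeq2 called Pklr at ZT 0 (adjusted p = 0.00648), 1 of 13 genes (0.108%). With no filter on counts, Pklr and Khk were called at ZT 0 (0.169% of genes), none of the 8 at ZT 4 (0.0629%), Pklr and Ppp1r3g at ZT 8 (0.606%) and Ppp1r3c at ZT 12 (0.258%).

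The second question was how the genes moved over the day. On the HFD, the diet with liver libraries at 6 times, 4 of the 8 genes changed between ZT 0 and ZT 20, namely Pklr, Slc2a2, Gys2 and Ppp1r3b, in an edgeR test that called 634 genes (5.27%). Without ZT 12 that test called Ppp1r3c (adjusted p = 0.0261, against 0.0654 with it) and Ppp1r3g as well, 6 of the 8 beside 1047 genes (8.68%), and adjusted p was 0.0141 for Pklr, 2.65e-04 for Slc2a2, 2.01e-06 for Gys2 and 0.00230 for Ppp1r3b. All but Pygl were called by DESeq2 (14.9% of genes) and by edgeR with no filter on counts (5.75%). A 24 h cosine curve was called for 6 of the 8, all but Pygl and Ppp1r3g, beside 1023 of 12008 genes (8.52%). Without ZT 12 the same 6 were called, beside 1035 genes (8.60%), as they were by DESeq2 (14.1%), and with no filter Ppp1r3g was called too (4.59%). With the HFD ZT 24 library added, Pklr, Khk and Ppp1r3b stayed called and Gys2, Slc2a2 and Ppp1r3c did not (3.06%). The fitted peaks were spread from the late light phase to the late dark phase, in the order Slc2a2, Gys2, Pklr, Khk, Ppp1r3b and Ppp1r3c. Neighbours in each of the pairs Slc2a2 and Gys2, and Pklr and Khk, differed by less than their standard errors.

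Gys2 on the HFD was at 89.1, 108 and 99.1 CPM at ZT 0, 109.6, 109.9 and 139.5 CPM at ZT 4 and 247, 295 and 272 CPM at ZT 8. It was at 315, 441 and 98.1 CPM at ZT 12, 196, 182 and 183 CPM at ZT 16 and 129, 104 and 106 CPM at ZT 20. Apart from ZT 12, ZT 8 was highest and ZT 16 next by the mean. The group means were 98.7 ± 9.38 CPM at ZT 0 and 271 ± 23.9 CPM at ZT 8 (SD, n = 3). The cosine curve had a peak at ZT 11.1 (SE 0.76 h) and an amplitude of 0.77 log2 units (SE 0.15, adjusted p = 0.00175), and the time test over ZT 0 to ZT 20 gave adjusted p = 0.0219. Without ZT 12 the peak was ZT 11.2 (SE 0.30 h).

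Slc2a2 on the HFD was at 239.8, 213 and 188 CPM at ZT 0, 299, 234 and 257 CPM at ZT 4 and 455, 444 and 503 CPM at ZT 8. It was at 405, 527 and 198 CPM at ZT 12, 362, 385 and 288 CPM at ZT 16 and 272, 224 and 207 CPM at ZT 20. ZT 8 was highest and ZT 0 lowest by the mean. The curve had a peak at ZT 10.6 (SE 0.89 h) and an amplitude of 0.50 log2 units (SE 0.12, adjusted p = 0.00874), and the time test gave adjusted p = 0.0303. Without ZT 12 the peak was ZT 10.9 (SE 0.37 h). Slc2a2 and Gys2 correlated with each other across the 30 libraries, with r = 0.92 on log2 CPM.

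On AIN93G the same 2 genes had their highest group means at ZT 8. Gys2 was at 103, 119.5 and 96.8 CPM at ZT 0, 118, 93.6 and 118 CPM at ZT 4, 309, 243 and 341 CPM at ZT 8 and 327, 99.2 and 105 CPM at ZT 12. Slc2a2 was at 288, 298 and 225 CPM at ZT 0, 329, 230.4 and 276 CPM at ZT 4, 502, 435 and 515 CPM at ZT 8 and 530.2, 297 and 259.9 CPM at ZT 12. With ZT 12 in the edgeR test neither passed on AIN93G, at adjusted p = 0.0763 for Gys2 and 0.245 for Slc2a2, beside 99 genes called (0.823%), while DESeq2 called Gys2 (adjusted p = 0.00348; 2.30% of genes) and the fit with no filter on counts both (1.28e-07 and 0.00588; 2.89%). Without ZT 12 both changed, at adjusted p = 3.27e-07 and 0.00250, beside 437 genes (3.62%). On the HFD over ZT 0 to ZT 12, both were called (adjusted p = 0.0356 for Gys2 and 0.0456 for Slc2a2), beside 205 genes (1.71%). Without ZT 12 both were called on the HFD too (adjusted p = 1.68e-06 and 2.77e-04), beside 415 genes (3.44%). With ZT 12, the 2 calls were each lost in 9 of 12 fits without 1 HFD library, kept for Gys2 without ZT 8 replicate 1 or 2 or ZT 12 replicate 3, and for Slc2a2 without ZT 8 replicate 2 or ZT 12 replicate 2 or 3, with adjusted p up to 0.0916 and 0.112.

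Gys2, Slc2a2 and Ppp1r3g followed the split of ZT 12. The share of all genes that split in the same way was not computed. The 3 ZT 12 libraries with Arntl under 2 CPM were those with Gys2 at 327 CPM on AIN93G and 315 and 441 CPM on the HFD, and the other 3 had 98.1 to 105 CPM, the level of ZT 0. Slc2a2 was at 405 to 530 CPM in the first 3 and at 198 to 297 CPM in the others. Ppp1r3g was at 5.07 to 14.7 CPM in the first 3 and at 0.302 to 1.21 CPM in the others. At ZT 24 Gys2 was at 365 CPM on AIN93G and 304 CPM on the HFD, above every ZT 0 library. Slc2a2 at ZT 24 was at 517 and 453 CPM, likewise above every ZT 0 library, and Ppp1r3c at 42.5 and 55.8 CPM, below every ZT 0 library. With the HFD ZT 24 library added, the cosine calls of Gys2, Slc2a2 and Ppp1r3c were lost (adjusted p = 0.101, 0.121 and 0.0658), and 367 genes were called (3.06%). The part of the time labels in these values was not tested.

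**Figure D3:**
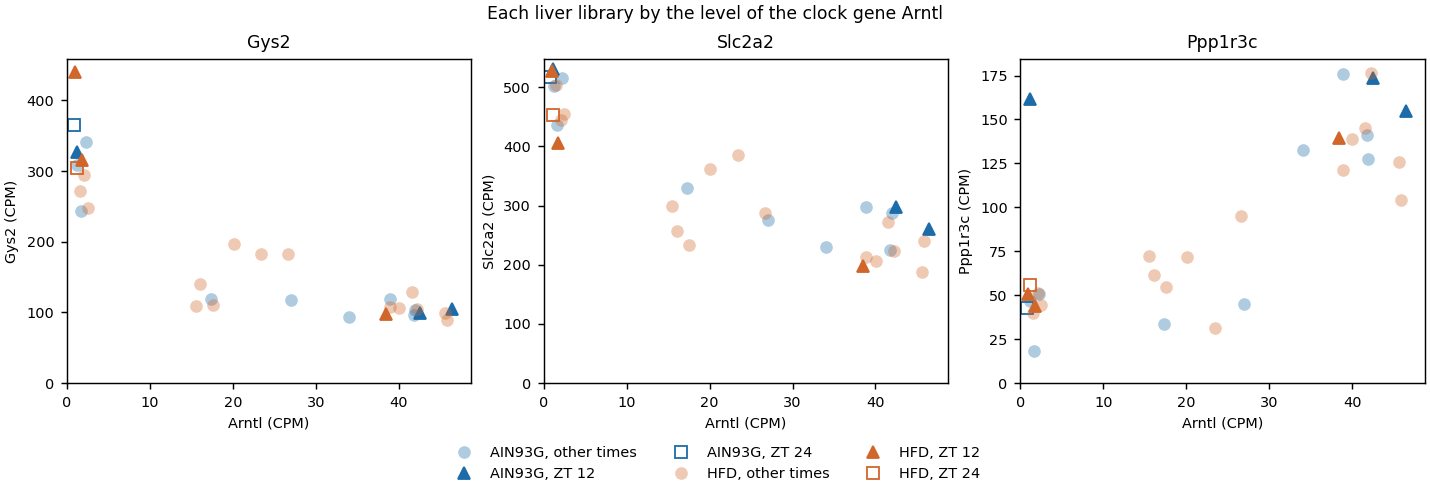
CPM of Gys2, Slc2a2 and Ppp1r3c (y axes) against CPM of Arntl (x axes), with 1 point a liver library. Triangles are ZT 12 and squares ZT 24. The ZT 12 triangles fell into a set under 2 CPM of Arntl and a set over 38 CPM, and Gys2 and Slc2a2 were higher in the first set on both diets.

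The fitted peaks of Pklr and Khk lay later than those of the transporter and the synthase on the HFD, a difference between genes that was not tested. Pklr was at 619.6, 323 and 403 CPM at ZT 16 and 347, 178 and 213 CPM at ZT 20. The mean was 155 ± 43.9 CPM at ZT 0 and 449 ± 153 CPM at ZT 16 (SD, n = 3). Its curve had a peak at ZT 14.2 (SE 0.69 h) and an amplitude of 0.78 log2 units (SE 0.14, adjusted p = 0.00303), and the time test gave adjusted p = 0.0310, a call lost without HFD ZT 0 or ZT 4 replicate 2 or 3, ZT 12 replicate 1 or ZT 16 replicate 1 or 3 (adjusted p up to 0.0751). The Slc2a2 time call was likewise lost without HFD ZT 0 replicate 2 or 3, ZT 8 replicate 1 or 3, ZT 12 replicate 1 or ZT 20 replicate 2 (up to 0.0791). Khk was at 666, 464 and 596 CPM at ZT 16 and 419, 389 and 441 CPM at ZT 20, with a peak at ZT 14.6 (SE 0.71 h) and an amplitude of 0.46 log2 units (SE 0.09, adjusted p = 0.00606), while its test over ZT 0 to ZT 20 did not pass with edgeR (adjusted p = 0.0817, or 0.148 without ZT 12) and did with DESeq2 (0.0115) and with no filter on counts (8.75e-04). Over ZT 0 to ZT 12 on the HFD, DESeq2 called both Pklr and Khk (0.0101 and 0.0486; 7.91% of genes), as did edgeR with no filter (3.81%), and edgeR with it did not (0.0795 and 0.127; without ZT 12 0.487 and 0.939). On AIN93G over ZT 0 to ZT 12 neither was called with edgeR (adjusted p = 0.722 for Pklr and 0.920 for Khk; 0.427 and 0.801 without ZT 12). Whether the time course of Pklr or Khk differed between diets was not detectable at this number of libraries, with interaction adjusted p = 0.852 for both, and 0.999 for both without ZT 12.

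Ppp1r3b had its lowest means at ZT 8 on both diets. On AIN93G it was at 551, 382 and 414 CPM at ZT 0, 213, 334 and 297 CPM at ZT 4, 179.9, 228 and 139.7 CPM at ZT 8 and 448, 602 and 656 CPM at ZT 12, lowest by the mean at ZT 8. This change passed (adjusted p = 0.0132; 0.0114 without ZT 12) and held in all 12 fits without 1 library. On the HFD it was at 422, 318 and 355 CPM at ZT 0, 288, 376 and 214 CPM at ZT 4 and 286, 162 and 163 CPM at ZT 8. It was at 357, 455 and 446 CPM at ZT 12, 691, 605 and 539.9 CPM at ZT 16 and 593, 583 and 360.0 CPM at ZT 20. Over ZT 0 to ZT 12 the HFD test did not pass with edgeR (adjusted p = 0.0718, or 0.151 without ZT 12) and did with DESeq2 (0.0118) and with no filter on counts (6.82e-04). Its curve had a peak at ZT 17.9 (SE 0.66 h) and an amplitude of 0.71 log2 units (SE 0.12, adjusted p = 0.00349), and the time test over ZT 0 to ZT 20 gave adjusted p = 0.00560, held in all 18 fits without 1 library.

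Ppp1r3c had the latest fitted peak. On the HFD it was at 104, 121 and 126 CPM at ZT 0, 72.6, 54.7 and 61.4 CPM at ZT 4 and 44.3, 51.3 and 40.2 CPM at ZT 8, then 71.8, 31.4 and 95.2 CPM at ZT 16 and 145, 176 and 139 CPM at ZT 20. Its curve had a peak at ZT 21.3 (SE 0.96 h) and an amplitude of 0.75 log2 units (SE 0.19, adjusted p = 0.0249), and without ZT 12 a peak at ZT 21.96 (SE 0.63 h) and an amplitude of 0.95 log2 units (SE 0.18, adjusted p = 0.00117). The cosine call was lost without HFD ZT 8 replicate 1 or ZT 20 replicate 1 or 2 (adjusted p up to 0.0641). On AIN93G it was at 128, 176 and 141 CPM at ZT 0, 33.8, 132 and 45.0 CPM at ZT 4 and 46.5, 18.5 and 50.7 CPM at ZT 8, and the change over ZT 0 to ZT 12 was called (adjusted p = 0.0436; 0.0174 without ZT 12), but in 10 of 12 fits without 1 library it was not (up to 0.238), those without ZT 4 replicate 2 and ZT 12 replicate 1 being the exceptions.

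Pygl and Ppp1r3g had no called time course with ZT 12 included, by edgeR with the count filter. Pygl on the HFD was at 584, 604 and 656 CPM at ZT 16 and 637, 561 and 565 CPM at ZT 20. Its HFD libraries lay between 418 and 656 CPM over ZT 0 to ZT 20, with a peak at ZT 14.7 (SE 1.04 h) and an amplitude of 0.16 log2 units (SE 0.04, adjusted p = 0.11999). Its cosine and time tests gave adjusted p = 0.161 and 0.361 without ZT 12, and the time test 0.618 with it. Ppp1r3g on the HFD was at 1.85, 1.64 and 9.76 CPM at ZT 0, 4.22, 47.0 and 1.82 CPM at ZT 8, 14.7, 5.07 and 1.11 CPM at ZT 12 and 0.359, 0.240 and 2.44 CPM at ZT 20. Its test over ZT 0 to ZT 20 gave adjusted p = 0.0679, 0.0304 without ZT 12, 0.0282 with DESeq2 and 1.11e-09 with no filter on counts. Each of these tests included the 1 ZT 8 library at 47.0 CPM. The edgeR test with the filter and ZT 12 passed in 1 of 18 fits without 1 library (adjusted p from 0.0380 to 0.192).

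**Figure D4:**
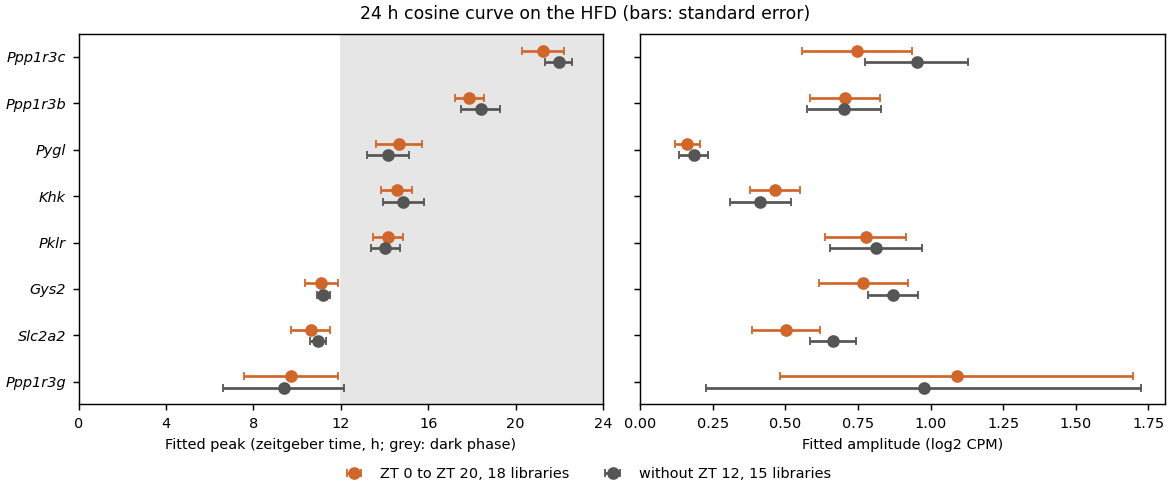
Fitted peak in zeitgeber hours (left) and amplitude in log2 CPM (right) of each gene on the HFD, from a least-squares 24 h cosine curve, with standard errors as bars, in orange for 18 libraries and in grey for the 15 without ZT 12. Slc2a2 and Gys2 lay before the dark phase and the other 4 called genes within it.

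The 8 genes were set among 74 genes of glycolysis, fructose metabolism, glycogen synthesis, glycogen breakdown and glycogen-bound phosphatase, of which 67 passed the count filter. Pklr was the only 1 of the 67 called for diet, beside 0.0998% of all genes, and 41 of the 67 had values below 0, with a median of -0.08 against -0.0019 over all genes. The medians were -0.11 for 29 glycolytic genes, 0.08 for 9 fructose genes, -0.13 for 9 synthesis genes, -0.02 for 12 breakdown genes and -0.00395 for 8 phosphatase genes. Over time on the HFD, ZT 0 to ZT 20, 16 of the 67 were called beside the 5.27% of all genes, namely 8 of 29, 3 of 9, 3 of 9, 1 of 12 and 1 of 8 in the order of these lists.

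**Figure D5:**
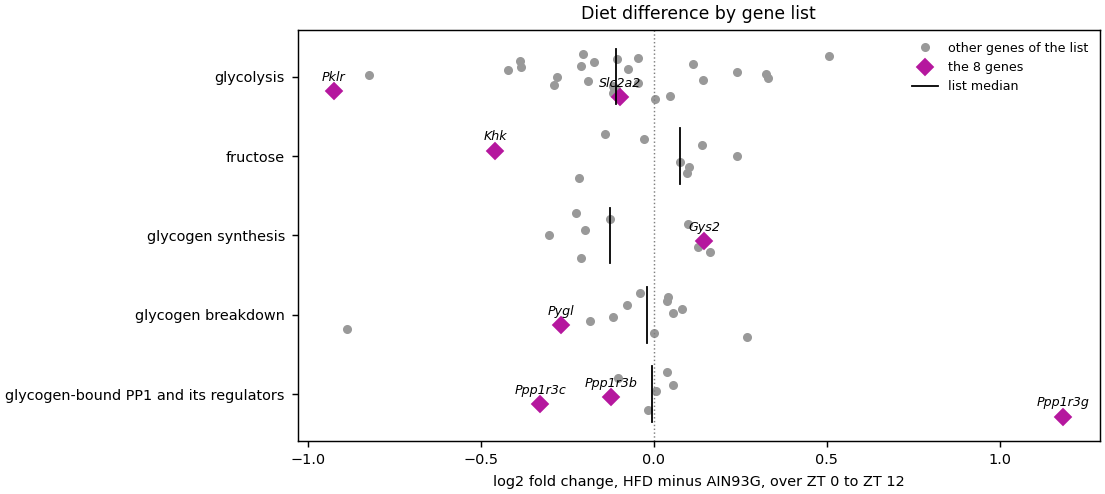
log2 fold change, HFD minus AIN93G, over ZT 0 to ZT 12 (x axis) for each tested gene of 5 lists (y axis), with the 8 genes as diamonds and list medians as vertical bars. Pklr was the lowest of the glycolysis list and Khk the lowest of the fructose list.

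Beyond the 8, the genes with the smallest adjusted p in each list had peaks across the day. In glycolysis these were Pfkl, a phosphofructokinase subunit (adjusted p = 0.0206, peak ZT 18.3), Gpi1, glucose-6-phosphate isomerase (0.0208, peak ZT 14.3), and Pfkfb3, which sets fructose 2,6-bisphosphate (0.0250, peak ZT 9.65). Among fructose genes they were Tkfc, triokinase (0.0126, peak ZT 14.9), Slc2a5, the fructose transporter GLUT5 (0.0171, peak ZT 7.76), and Slc2a9, a urate transporter (0.0403, peak ZT 7.15). In glycogen synthesis Ugp2, which makes UDP-glucose (0.00317, peak ZT 7.51), and Gbe1, the branching enzyme (0.0192, peak ZT 13.004), were called, and Pgm1, a phosphoglucomutase, was not (0.325). In breakdown Phka2, the liver phosphorylase kinase subunit (0.00407, peak ZT 4.73), was called, and Slc37a4, the glucose-6-phosphate transporter (0.105), and Gaa, the lysosomal glucosidase (0.121), were not. The edgeR cosine test did call Slc37a4 (adjusted p = 0.0303) and Gaa (0.0401). Of the phosphatase list, Epm2a, laforin (0.131), and the catalytic subunit Ppp1ca (0.294) and targeting subunit Ppp1r3e (0.336) were not called. The cosine test called Epm2a (adjusted p = 0.0359, or 0.0280 without ZT 12). It called Ppp1ca only without ZT 12 (0.0392, against 0.193 with it).

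On AIN93G over ZT 0 to ZT 12, 6 of the 67 were called, Ppp1r3b, Ppp1r3c, Slc2a5, Ldhb, Eno3 and Pygm, beside 0.823% of all genes. Eno3 and Pygm, the muscle enolase and phosphorylase, and Ldhb, a lactate dehydrogenase subunit, were at 51.2, 58.3 and 36.2 CPM in AIN93G ZT 8 replicate 2, where 5 skeletal muscle markers summed, by library size, to 1239 CPM against 2.18 to 94.0 CPM in the other 29 fitted libraries. By library size, the median of Pygm over the 30 fitted libraries was 1.65 CPM. On the HFD, which this library is not part of, Ldhb had a fitted cosine peak at ZT 9.30 (SE 1.37 h) that was not called (edgeR adjusted p = 0.101). The part of muscle RNA in those calls was not tested.

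The genes most like each of the 8, by Pearson correlation of log2 CPM over the 30 libraries, are given as a description, since all share libraries, diets and times. Pklr was closest to its neighbour Hcn3 (r = 0.94) and to Elovl6, a fatty acid elongase (r = 0.92). Khk was closest to Samm50 (r = 0.87) and Gapdh (r = 0.87), Slc2a2 to Gys2 (r = 0.92), and Gys2 to Coq10b (r = 0.93) and Slc2a2. Pygl was closest to Pnpla5 (r = 0.87) and to Me1, the cytosolic malic enzyme (r = 0.78). Ppp1r3b was closest to Mroh6 and to the clock repressor Cry1 (r = 0.85 for both), Ppp1r3c to Ppard (r = 0.80) and Pnrc1 (r = 0.77), and Ppp1r3g to Lpin2 (r = 0.71) and Tnfrsf1b (r = 0.70). Within the 8, Pklr correlated with Khk (r = 0.81) and Pygl (r = 0.74), Khk with Pygl (r = 0.69) and Ppp1r3b with Ppp1r3c (r = 0.57), and Ppp1r3c was negatively correlated with Slc2a2 (r = -0.60) and Gys2 (r = -0.58), over the same 30 libraries.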

How the data were processed

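RNA sequencing of poly(A) RNA (NEBNext Ultra library kit, paired-end Illumina reads) was run on 42 libraries, and the table deposited by the authors holds whole-number read counts per gene for all of them. The submitters' processing notes name fastp, STAR, HTSeq 0.6.1, DESeq, STAR-Fusion and mm10, with no order. The strand setting and annotation release were not given in the sources used here, and 7 of the 8 genes had coordinates identical to GENCODE M21.

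Libraries with Alb over 10000 CPM were taken as liver. Counts of 30 libraries in 10 diet and time groups (20 residual degrees of freedom) were fitted with edgeR 4.0.16 (TMM factors, quasi-likelihood test, mean count of at least 25, Benjamini-Hochberg adjusted p under 0.05 over all genes), and the 18 HFD libraries with a cosine and sine of 24 h. Standard errors of log2 fold changes were taken from the F statistic. Amplitudes and peaks came from least squares on log2 CPM (prior count of 2) with delta-method errors, and their adjusted p from edgeR. Levels were CPM with TMM factors, and CPM for the Alb check used library size. Alternatives were library size scaling, DESeq2 1.42.0, limma 3.58.1 for the cosine, no filter, 25 counts in every library, leaving out ZT 12, adding ZT 24, 6 libraries alone, all 42 libraries, and leaving out each library. The steps were tested on simulated data. Library pairs within groups differed beyond counting noise (chi-square of at least 14.5 per degree of freedom in each of 42 pairs), so each was counted as 1. Libraries came from separate RNA extractions that the labels do not tie to individual mice, so that p-values measure the spread between these samples, and counting limits cover counting error only.

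The named genes were the 8, list genes called for diet or interaction, the 3 of each list with the smallest adjusted p on the HFD, the 2 most correlated genes of each of the 8 (1 of them is not reported here), and Alb, Adipoq, Arntl and Nr1d1. Hcn3's test, Eno3 and Pygm were added after their values were seen, as was Ldhb. The 8 genes and the lists were chosen with earlier results of these data known. Promoter windows were RefSeq, GRCm38.p6.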

Additional observations from a re-analysis of the deposited data

Results flagged for a closer look

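All values here are CPM by library size. In the 10 libraries with Alb under 10000 CPM, which were used only in the fit of all 42 libraries, the highest Pygl level was 894 CPM by library size, above the 829.9 CPM of the highest fitted liver library. The highest Ppp1r3b level there was 854 CPM, against 696 CPM. Both were picked out because libraries outside the main comparisons exceeded the liver maximum. Over the 10 libraries Pygl ranged over 180.3 to 894 CPM and Ppp1r3b over 38.2 to 854 CPM. Gys2 was at 19.3 to 106 CPM, Ppp1r3c at 37.9 to 183 CPM and Khk at 12.7 to 22.1 CPM. Pklr was at 0 to 0.255, Slc2a2 at 0 to 0.446 and Ppp1r3g at 0 to 0.574 CPM, where a count of 0 allows 0.1404 to 0.191 CPM (3 counts a library). The 10 adipocyte markers summed to 17774 to 28786 CPM in these libraries and the 15 hepatocyte markers to 101 to 265 CPM.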

How the results depend on the processing

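Of 650 values with a direction for the 8 genes under the alternatives, 22 had another sign than reported, and 3 passed the test with that sign, all with the 42 libraries of 7 times: Pklr at 3.20, Khk at 1.31 and Slc2a2 at 3.31 on the log2 scale, with 5586 of 13394 genes called (41.7%). That fit compared 21 libraries a diet, of which 8 on AIN93G and 2 on the HFD were under the Alb threshold. The count of genes called for diet over ZT 0 to ZT 12 was 12 (5 higher and 7 lower on the HFD), and 22 (13 and 9) with library size scaling, 83 with DESeq2, 232 without a filter and 64 (39 and 25) without ZT 12. Without a filter the counts were 51, 19, 183 and 78 at ZT 0, 4, 8 and 12, and 93 for the interaction. With DESeq2 they were 13 at ZT 0, 30 at ZT 8, 3 at ZT 12 and 5 for the interaction. The 6 libraries of a time alone gave 9 at ZT 0 and 0 at ZT 8, where 1411 were under an unadjusted p of 0.05 in the reported fit, and leaving out ZT 12 gave 1 at ZT 0 and 4 at ZT 8. For time on AIN93G the counts were 276 with DESeq2, 872 without a filter, 17 with 25 counts in every library and 437 without ZT 12. On the HFD, ZT 0 to ZT 12, they were 951, 1152 without a filter and 415 without ZT 12, and over ZT 0 to ZT 20 1788, 1738 and 1047. The cosine count was 1693 with DESeq2 and 367 with the ZT 24 library. Without 1 library the counts were 5 to 183 for diet (183 without AIN93G ZT 12 replicate 1), 0 to 30 at ZT 8 (30 without HFD replicate 2), 0 to 107 at ZT 12 (107 without AIN93G replicate 1), 0 to 2 for the interaction, 12 to 282 for time on AIN93G, 41 to 738 and 330 to 1176 on the HFD, and 672 to 1710 for the cosine (1710 without HFD ZT 12 replicate 3). The causes were not tested. Ppp1r3g could not be fitted with 25 counts in every library. No paired analysis was possible because the replicates of a group are numbered here in accession order, and the numbers that start the titles, whose meaning is not stated, are never shared between the diets and by at most 1 library of any 2 times within a diet. With 3 libraries a group, differences within the standard errors given, and some of several times their size, were not detectable. Pklr at ZT 0, for example, differed by -1.65 with an SE of 0.37 and was not called by edgeR (adjusted p = 0.327).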
